A study of Mus musculus with 12 samples.

Results

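Cluster 21 is a group of tumor macrophages defined by the cluster label that the authors deposited for each cell. It held 4300 of the 93126 cells of the series and 6.32% of the 68059 cells carrying a macrophage cluster label, and it was set against the 63759 cells of the other macrophage clusters (clusters 2, 4, 5, 9, 15, 17, 19, 26 and 27). The study asked how the host genome shapes the immune environment of a tumor and its answer to blockade of the checkpoint receptor PD-1. MC38 colon carcinoma cells were grown in female mice, either of the inbred strain C57BL/6J (B6) or F1 offspring of a cross between B6 and a Collaborative Cross strain, and each mouse received an antibody to PD-1 (aPD1) or an isotype control antibody 48 h before harvest. Single-cell 5′ RNA libraries were made from 12 pools, and each pool held 4 tumors told apart by hashtag antibodies.

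The 48 tumors comprised 24 isotype and 24 aPD1 tumors, and each pool held isotype and aPD1 tumors of the same strains. CC001, CC002 and CC075 F1 mice are the responder strains of the study, and CC036, CC079 and CC080 F1 mice are the non-responder strains, by the growth of tumors in other animals. B6 mice and CC007 F1 mice carry neither class. There were 8 tumors from CC001, 4 from CC007 and 6 from each of the other strains. All groups share the implanted MC38 cell line, the single dose of 200 µg antibody and a sort that set CD45+ cells to 90% of the input, so macrophages are measured as a fraction of what that sort passed. Mice were 8 to 12 weeks old. No hashtag was used for both an isotype and an aPD1 tumor, so the hashtag and the treatment cannot be told apart. The labels give 1 animal identifier to 2 CC080 tumors, an isotype tumor of pool 3 and an aPD1 tumor of pool 4.

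Cells per tumor ran from 53 to 3082, and cluster 21 gave 2 to 248 cells per tumor (median 81) and 213 to 474 cells per pool, so every pool contributed. Its cells had a median of 3299.5 UMIs (unique molecular identifiers, counted RNA molecules) and 1433 genes, against 3495 UMIs and 1519 genes in the other macrophages, and the median share of mitochondrial UMIs was 1.17% against 1.33%. A cell barcode that also occurred in another library was carried by 475 of its cells (11.0%), among 4990 of 87940 barcodes that occurred in at least 2 libraries. UMI counts were summed per tumor, and levels are given as counts per 1000000 UMIs (CPM). Tumors with at least 20 cells of the cluster were used for these sums, which left 45 tumors with 130811 to 955649 UMIs each (median 360719). The tumors left out were a CC002 isotype tumor of pool 12, a CC007 aPD1 tumor of pool 6 and a CC036 isotype tumor of pool 8.

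The label of macrophage held. None of the 10 macrophage markers differed from the other macrophage clusters by 2-fold or more, and their summed level was 15722 CPM against 17972 CPM. Lyz2, which encodes lysozyme, stood at 5539 CPM in cluster 21 and 6126 CPM in the others. Csf1r, the receptor that macrophages need for survival, stood at 386 and 414 CPM, and Adgre1, which encodes the F4/80 antigen, at 115 and 154 CPM. Lymphocyte, fibroblast and granulocyte markers were far below their levels in the clusters of those cells. The T cell list summed to 5.75 CPM against 4537 CPM in the T cell clusters, the natural killer list to 5.41 against 3550 CPM in its own cluster, the fibroblast list to 5.46 against 11881 CPM and the granulocyte list to 47.6 against 66003 CPM. A UMI of any of 8 lymphocyte genes was found in 1.40% of the cells of cluster 21 (60 cells), in 1.69% of the other macrophages and in 94.0% of the cells of the T cell clusters, at median depths of 3299.5, 3495 and 1917 UMIs.

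Monocyte markers stood apart from this. The monocyte list summed to 3980 CPM in cluster 21 and 1925 CPM in the other macrophages, and it was higher in cluster 21 in 45 of 45 tumors. Ly6c2, a surface antigen of classical monocytes, stood at 1400 against 372 CPM and Plac8 at 1565 against 528 CPM. Cx3cr1, Treml4 and Ace, which mark non-classical monocytes, were at 214, 4.84 and 2.48 CPM, all below their levels in the other macrophages. Cluster 4 carried the highest monocyte sum of any macrophage cluster, at 7386 CPM. The part of these monocyte transcripts in the results below was not tested. The plasmacytoid dendritic cell list was also higher, at 1104 against 451 CPM, with 8569 CPM in its own cluster, but nearly all of that was Bst2, itself an interferon-induced gene, and Siglech, a defining marker, was at 0.0563 CPM. Among the other lists, dendritic cell markers were lower in cluster 21 (type 1 dendritic cells 63.4 against 110.8 CPM, with 922 CPM in their own cluster, type 2 49.0 against 61.4 CPM, with 1106 CPM, and migratory 178 against 261 CPM, with 7244 CPM). The endothelial list held 1 higher gene, Kdr, a receptor for vascular growth factor, at 10.9 against 1.60 CPM, while Cldn5 was at 0.0563 CPM.

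Type I interferons are secreted proteins that signal danger from viruses and from misplaced nucleic acid. They bind a receptor made of Ifnar1 and Ifnar2, and the signal reaches the nucleus as a complex holding Stat2 and Irf9 that binds a short DNA element in the promoters of its target genes. The targets include antiviral effectors such as the Ifit proteins, nucleic acid sensors, chemokines and feedback inhibitors. Interferon-γ, made by T and natural killer cells, uses another receptor and another DNA element, and many target genes answer to both.

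The genes that set cluster 21 apart were those of the type I interferon response. Leading genes were the 25 with the largest ratio to the other macrophages among genes of at least 50 CPM that were higher in at least 90% of tumors, a rule that 450 genes passed before the limit of 25. Cells were clustered on their expression, so these contrasts describe the cluster and were not tested. All 25 were higher in 45 of 45 tumors, and for 22 of the 25 the lowest tumor in cluster 21 lay above the highest tumor in the other macrophages. The rule that chose these genes favors both counts, and neither was taken over all genes. Together the 25 genes took 1.21% of the UMIs of cluster 21 and 0.104% of those of the other macrophages.

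The Ifit family, whose proteins bind foreign RNA ends, gave the largest ratios. Ifit1bl1 was 63.1-fold higher than in the other macrophages (111 against 1.77 CPM), Ifit3b 46.9-fold (185 against 3.95 CPM), Ifit3 34.7-fold (701 against 20.2 CPM), Ifit1 30.7-fold (487 against 15.9 CPM) and Ifit2 26.2-fold (706 against 26.9 CPM). Across tumors Ifit3 ran from 293 to 934 CPM with a median of 718 CPM in cluster 21, and from 6.06 to 37.9 CPM with a median of 20.1 CPM in the other macrophages. The tumors of the 2 sets of cells did not overlap for this gene.

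Antiviral effectors outside that family followed. Rsad2, which encodes viperin, an enzyme that makes a chain-terminating nucleotide, was 28.2-fold higher, with a lowest, median and highest tumor of 415, 866 and 2251 CPM in cluster 21 and 5.81, 27.2 and 137 CPM in the others. Its neighbour Cmpk2, a nucleotide kinase, was 33.4-fold higher (261 against 7.83 CPM). Isg15, a ubiquitin-like modifier, was 11.4-fold higher, with 1708, 2662 and 4404 CPM in cluster 21 and 122, 237 and 492 CPM in the others, and an Isg15 UMI was found in 96.1% of the cells of cluster 21 and 36.3% of the others. Usp18, the protease that removes Isg15 from proteins and damps the receptor, was 13.3-fold higher (262 against 19.7 CPM). Oasl1 was 14.1-fold higher (365 against 25.8 CPM), Isg20, an exonuclease, 13.1-fold (189 against 14.5 CPM) and Slfn4 10.8-fold (427 against 39.8 CPM).

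The other leading genes included sensors and a chemokine. Ifih1, which encodes the RNA sensor MDA5, was 6.71-fold higher (340 against 50.6 CPM). The Ifi200 family members Ifi208, Ifi206, Ifi213 and Ifi205 were among the 25, with Ifi205 at 492 against 62.4 CPM. This family consists of near-identical neighbours, as do Ifit3 with Ifit3b, Phf11a with Phf11d and the Trim30 genes, and reads could be split between copies, so the level of each member is uncertain. Cxcl10, the chemokine that draws CXCR3-bearing T cells, was 7.68-fold higher, with 949, 1978 and 3211 CPM in cluster 21 and 56.9, 278 and 593 CPM in the others. Ddx60, Herc6, Gm13822 and A330040F15Rik completed the list.

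**Figure D1:**
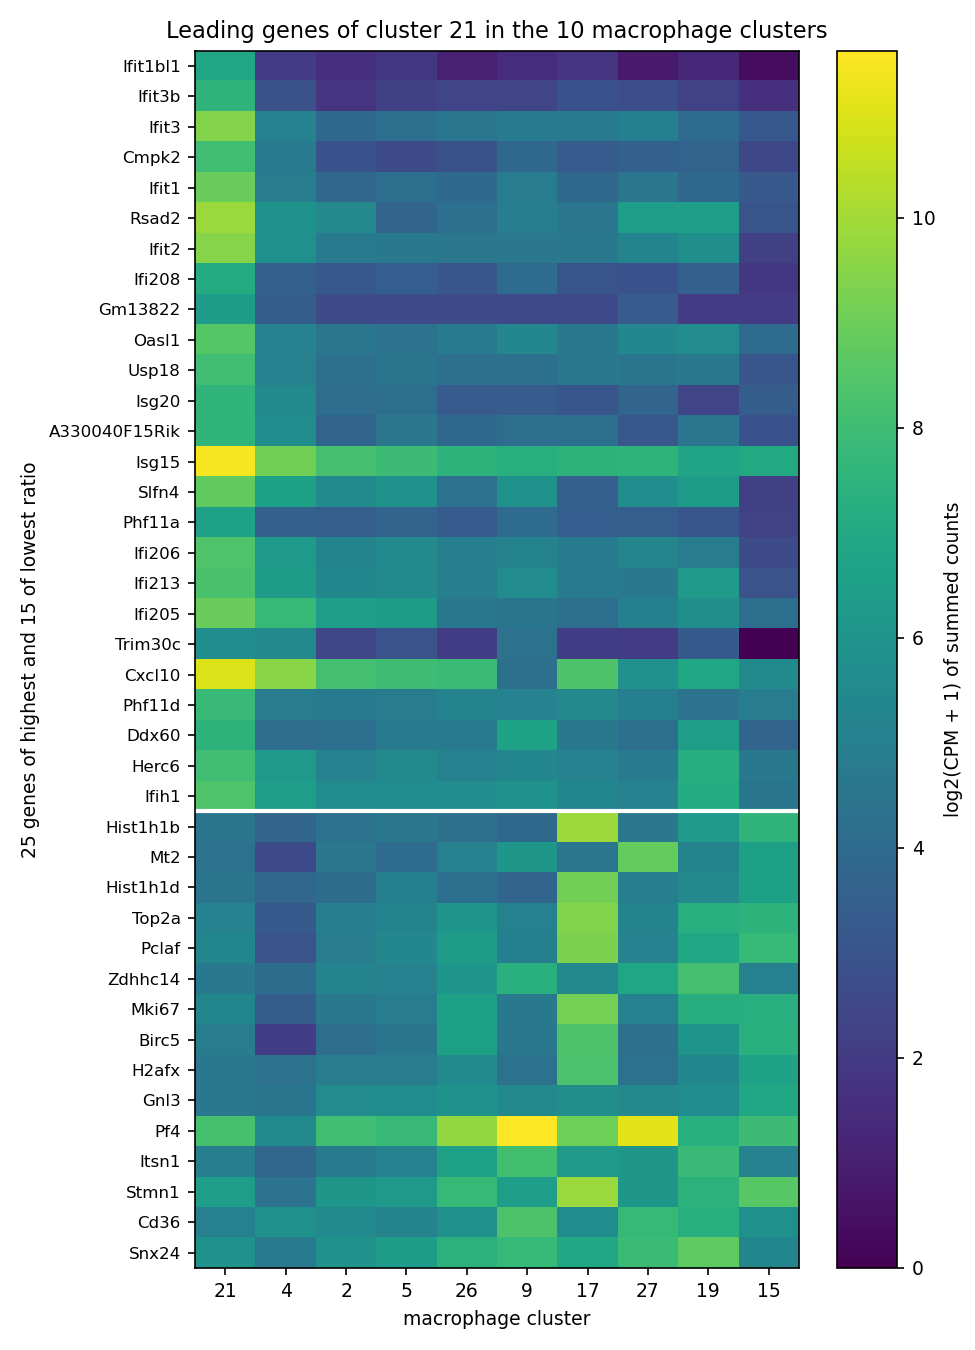
Heat map of the 25 leading and 15 lowest genes (rows, parted by a white line) in the macrophage clusters (columns, cluster 21 at the left), with the color giving log2 of CPM plus 1 from counts summed over the cells of each cluster. The leading genes are brightest in cluster 21, with cluster 4 next for 16 of the 25, and the lowest genes are brightest in cluster 17 for 8 of the 15.

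The promoters of leading genes are shown because the element bound by the complex of Stat2 and Irf9 (the interferon-stimulated response element, ISRE) has a short, fixed core. The 4 leading genes of highest level were printed, each from 250 bases before to 50 bases after its start, 5′ to 3′ on the strand of the gene, from RefSeq on GRCm38.p6. Capitals mark the core, GAAA, any 2 bases, GAAA, on either strand, with overlapping matches joined. The windows are chr4:156200769-156201068 (minus strand) for Isg15, chr5:92348840-92349139 (minus strand) for Cxcl10, chr12:26456403-26456702 (minus strand) for Rsad2 and chr19:34550444-34550743 (plus strand) for Ifit2.
Isg15: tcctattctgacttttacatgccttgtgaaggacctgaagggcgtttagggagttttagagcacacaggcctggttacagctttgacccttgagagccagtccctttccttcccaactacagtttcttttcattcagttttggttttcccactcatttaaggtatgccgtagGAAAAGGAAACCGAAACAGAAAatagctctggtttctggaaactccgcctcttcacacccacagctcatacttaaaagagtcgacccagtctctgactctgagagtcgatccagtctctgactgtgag
Cxcl10: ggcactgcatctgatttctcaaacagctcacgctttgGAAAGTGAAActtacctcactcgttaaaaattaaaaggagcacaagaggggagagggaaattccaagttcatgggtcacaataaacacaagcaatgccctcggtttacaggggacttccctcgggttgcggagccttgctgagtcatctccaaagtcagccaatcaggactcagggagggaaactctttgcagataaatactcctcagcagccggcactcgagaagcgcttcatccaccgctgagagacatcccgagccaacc
Rsad2: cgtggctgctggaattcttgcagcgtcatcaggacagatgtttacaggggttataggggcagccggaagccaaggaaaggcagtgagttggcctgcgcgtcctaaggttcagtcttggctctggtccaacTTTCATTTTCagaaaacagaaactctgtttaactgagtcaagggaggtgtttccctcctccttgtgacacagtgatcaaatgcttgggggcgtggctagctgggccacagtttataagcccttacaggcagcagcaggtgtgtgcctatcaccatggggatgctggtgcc
Ifit2: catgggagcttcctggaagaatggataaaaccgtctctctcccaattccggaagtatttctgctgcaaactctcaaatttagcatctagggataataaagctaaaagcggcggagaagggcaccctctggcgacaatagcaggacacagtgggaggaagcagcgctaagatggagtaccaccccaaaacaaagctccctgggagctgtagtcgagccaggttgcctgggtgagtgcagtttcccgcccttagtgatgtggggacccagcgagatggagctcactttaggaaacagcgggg
Isg15 had 3 overlapping matches, which began 78, 72 and 66 bases before the start. Cxcl10 had 1 match, 213 bases before the start, and Rsad2 had 1 on the reverse strand, 120 bases before it. The printed window of Ifit2, 1 of 2 found for that gene, had none, nor did the other.

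A promoter was found for 24 of the 25 leading genes, and none was found for Usp18. The core was in the promoter of 14 of the 24 (58.3%), against 3.99% of 27018 genes and 4.50% of the matched genes of at least 10 CPM in these cells. None of the 9 genes with a promoter among the 15 lowest genes had it. A core of the element used by interferon-γ (TTC, any 3 bases, GAA, on either strand) was in 3 of the 24 (12.5%), against 9.55% of all genes. A match is a string of letters in the reference genome and not a measured binding site, and F1 mice carry a second haplotype that was not read here.

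Of 8041 genes that reached 10 CPM in either set of cells, 289 (3.59%) were at least 2-fold higher in cluster 21, 128 (1.59%) were at least 2-fold lower, 80 were at least 4-fold higher and 18 at least 10-fold higher, with a median ratio of 0.889 over all of them. Every one of the 18 measured of 19 listed type I interferon genes was at least 2-fold higher, with a median ratio of 7.20 and a range of 2.46 to 34.7. Bst2, which tethers budding virus, was the lowest of these at 1100 against 447 CPM, and 9 of the 18 were leading genes. Their summed level ran from 8412 to 15463 CPM per tumor in cluster 21 and from 989 to 2546 CPM in the other macrophages. Cluster 4 was the highest of the other clusters, at 2579 CPM.

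Genes induced by interferon-γ were higher by less. At least 2-fold higher were 10 of the 21 measured, none was 2-fold lower, and the median ratio was 1.97. Cxcl9, the chemokine most often used to mark interferon-γ action, was at 1214 against 877 CPM (1.38-fold) and lower in cluster 21 in 7 of 45 tumors, and it stood at 1213 CPM in cluster 5. Ciita, the switch for class II genes, was at 49.6 against 64.8 CPM. Of the others, Gbp5, a guanylate-binding protein, was 3.66-fold higher (228 against 62.4 CPM), Igtp, an immunity-related GTPase, 3.23-fold (159 against 49.3 CPM), and Cd274, which encodes PD-L1, 1.66-fold (258 against 155 CPM).

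Antigen presentation split by class. The class I genes had a median ratio of 1.49, and Nlrc5, their transcriptional activator, was the 1 of 9 past 2-fold (144 against 60.1 CPM). The class II genes had a median ratio of 0.973 with none of 8 past 2-fold, and their summed level was 23266 CPM in cluster 21 and 23260 CPM in the others, higher in 22 of 45 tumors.

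Genes of the signalling chain below the receptor were higher. Ifnar1 (100 against 93.0 CPM) and Ifnar2 (180 against 169 CPM) were close to the other macrophages. Stat2 was at 275 against 64.5 CPM, Irf9 at 65.4 against 45.7 CPM, and Irf7, the factor that amplifies interferon production, at 672 against 120 CPM. Irf3, which starts that production, was at 23.8 CPM, below its level in the other macrophages. Sensors of nucleic acid were higher in part, with Ddx58 (RIG-I) at 198 against 32.2 CPM, Zbp1 at 430 against 131 CPM, Tlr3 at 30.5 against 8.25 CPM and Tlr9 at 23.5 against 7.10 CPM, while the adaptor Mavs was at 8.17 against 10.6 CPM.

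Interferon transcripts were rare. Ifnb1, the interferon-β gene, gave 23 UMIs in 12 cells of cluster 21 (0.279% of cells) and 72 UMIs in the other macrophages (0.0471% of cells). Its level in clusters 27 and 9, at 1.51 and 1.38 CPM, was above that in cluster 21. In cluster 21 Ifna2 gave 3 UMIs, all in 1 cell, and Ifna4 gave 0, of 11 in all cells. Ifng gave 12 UMIs in cluster 21 of 23617 in all cells.

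Secreted and surface products included further interferon targets. Ccl4 and Ccl12, chemokines that draw leukocytes, were both 2.69-fold higher (1512 against 561 CPM and 1307 against 486 CPM) and were the 2 of 14 measured inflammatory genes past 2-fold, while Cxcl3, a ligand for neutrophil receptors, was lower (8.06 against 32.6 CPM). Il1b was at 1116 against 1104 CPM. Tnfsf10, which encodes the death ligand TRAIL, was at 42.0 against 2.55 CPM, Il15, a cytokine for natural killer and memory T cells, at 123 against 27.5 CPM, and Il27 at 35.2 against 10.3 CPM. Among 12 checkpoint and costimulation genes Cd40 (172 against 53.5 CPM) and Lgals9 (377 against 147 CPM) were past 2-fold.

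The lowest genes of cluster 21 included genes of cell division and some genes of other macrophage states. The 15 lowest genes, chosen by the same rule in the other direction from 433 that passed it, included Hist1h1b, a linker histone made during DNA replication (20.7 against 83.0 CPM), Top2a (34.5 against 88.8 CPM), Mki67, the proliferation marker (38.4 against 87.1 CPM), Birc5, Pclaf, H2afx and Stmn1. Cluster 17 was the highest cluster for 8 of the 15. Of the measured G2 and M phase genes, 14 of 18 were at least 2-fold lower (median ratio 0.443), as were 5 of 9 histone genes (0.487) and 3 of 16 S phase genes (0.650). Cluster 17, which is among the other macrophages, had the highest sum of each list (3551.8 CPM for G2 and M phase). Its part in these ratios was not tested. The lowest sums lay outside cluster 21. Cluster 4 was lower for G2 and M phase (54.3 against 285.3 CPM) and S phase genes (215.0 against 428.3 CPM). Cluster 9 was lower for histone genes (921.4 against 1301.4 CPM). Cell cycle scores had been regressed out before clustering.

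Among the other lowest genes, Mt2, a metallothionein, was at 0.347 of its level in the other macrophages (54.8 CPM), Pf4, a platelet-type chemokine, at 295 against 616 CPM and 3079 CPM in cluster 9, and Cd36, a scavenger receptor for lipids, at 32.0 against 65.6 CPM. Genes of the type 2 (interleukin-4) response had a median ratio of 0.559 with 3 of 10 at least 2-fold lower. Retnla was at 8.06 against 28.5 CPM, Ccl24 at 22.1 against 59.5 CPM, Mrc1, the mannose receptor, at 129 against 236 CPM, and Arg1, arginase, at 446 against 727 CPM. Lipid-associated genes had a median ratio of 0.744 and complement genes 0.802, near the all-gene median of 0.889, as did oxidative phosphorylation (0.929), glycolysis (0.905), lysosomal (0.937) and cytosolic ribosomal genes (0.851).

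Nearly all cells of the cluster carried UMIs of the type I genes. Cells were clustered on their expression, so this measure describes the cluster and was not tested. Each cell was thinned to 1000 UMIs, which left out 184 cells of cluster 21, and UMIs of the type I genes were counted. The median cell of cluster 21 had 11 such UMIs, with 5 at the 10th percentile and 22 at the 90th, and 0.146% of cells had none. The median cell of the other macrophages had 1, with 4 at the 90th percentile, and 32.8% had none. Without thinning the medians were 10.5 and 1.18 per 1000 UMIs.

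The boundary of the cluster was not sharp in this measure. Among macrophages, 9560 cells reached the 10th percentile of cluster 21, of which 38.8% were in cluster 21, 20.1% in cluster 2 and 9.00% (860 cells) in cluster 4. Cluster 26 held 1272 of them and cluster 5 held 1145. Cells outside cluster 21 that reached its median numbered 475 (0.796%), and the share was 2.78% in cluster 4, where the median cell had 2 such UMIs.

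**Figure D2:**
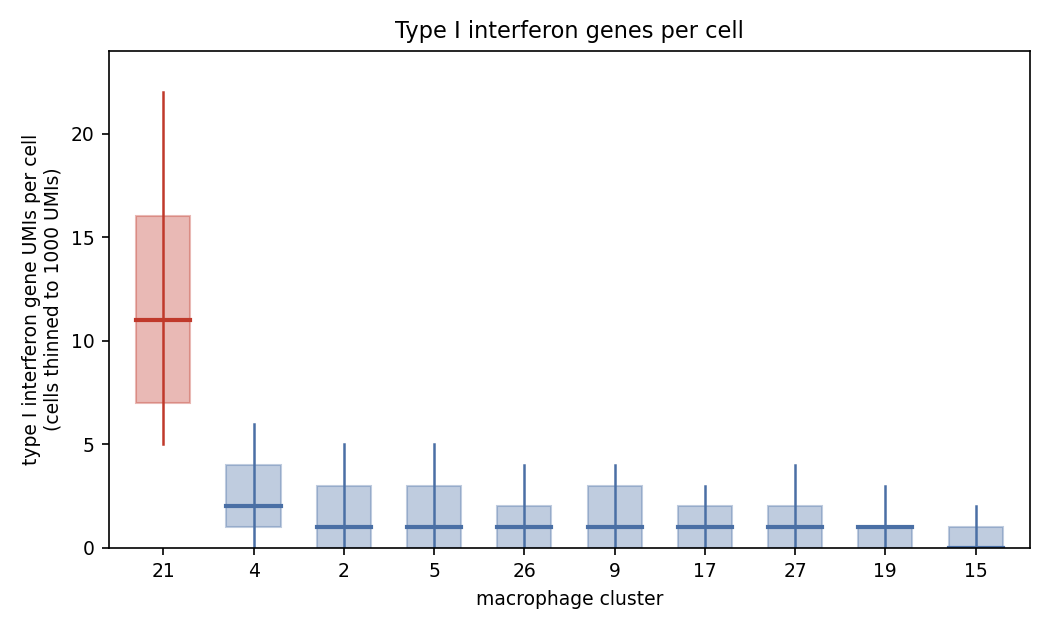
UMIs of the type I interferon genes per cell after thinning each cell to 1000 UMIs, by macrophage cluster, with bars at the median, boxes from the 25th to the 75th percentile and lines from the 10th to the 90th. Cluster 21 has a median of 11 and a 10th percentile of 5, and cluster 4, the next, has a median of 2 and a 90th percentile of 6.

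With genes past 2-fold set aside, the remaining 7624 genes of cluster 21 followed cluster 2 most closely (Pearson correlation of log CPM across genes 0.979, median difference 0.18 on the log2 scale), then cluster 5 (0.970), cluster 26 (0.957) and clusters 27 and 4 (0.940 and 0.937), which change places over all 8041 genes (0.905 and 0.921). Clusters 15 (0.818) and 19 (0.791) were farthest, and change places over all genes as well (0.760 and 0.767). These values describe genes of pooled cells that share the same tumors and libraries. Genes were set aside by their ratio to all other macrophages, where clusters 2, 26 and 5 held 18964, 17007 and 12064 of 63759 cells, which favors these clusters. Over all genes clusters 2, 5 and 26 were also closest (0.953, 0.945 and 0.923). Cluster 15 had 293 cells, and the part of cell number and depth in the ranking was not tested. For single leading genes the next highest cluster was cluster 4 for 16 of the 25, cluster 19 for 4, cluster 9 for 3 and cluster 17 for 2. Trim30c was nearly as high in cluster 4 (43.1 CPM) as in cluster 21 (50.7 CPM), and Rsad2 stood at 89.5 CPM in cluster 19, whose cells had a median of 1225 UMIs.

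The share of cluster 21 among the macrophages of a tumor ran from 2.51% to 12.4% (median 5.83%). It was 7.00% ± 2.76 (SD, n = 24) in isotype tumors and 5.60% ± 2.03 (SD, n = 24) in aPD1 tumors, a difference of -1.40 percentage points that did not pass a two-sided permutation test of the rank sum (p = 0.106). The share was lower with aPD1 in 15 of 24 pairs of the same strain and pool, and a permutation test over pairs gave p = 0.0719. Within pools 1 to 5 the difference was 0.169 percentage points (permutation p = 1), and within pools 8 to 12 it was -1.76 (permutation p = 0.281). Without CC001, where the aPD1 share was lower in 1 of 4 pairs, it was -1.86 (permutation p = 0.0435). As a share of all cells the difference was -0.699 percentage points (permutation p = 0.341).

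By strain, the 3 CC075 isotype tumors held 4.50%, 11.9% and 12.0% and the 3 aPD1 tumors 4.12%, 4.50% and 6.62%. CC080 had a mean of 8.03% with isotype and 8.87% with aPD1, B6 9.53% and 5.49%, CC007 7.26% and 4.75%, and CC001 5.00% and 5.93%. The means of the responder strains were 6.36% (isotype, n = 10) and 4.92% (aPD1, n = 10), and those of the non-responder strains 6.80% and 6.58% (n = 9 each). The share was not tested between response classes, since genes that define the cluster differed between them.

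**Figure D3:**
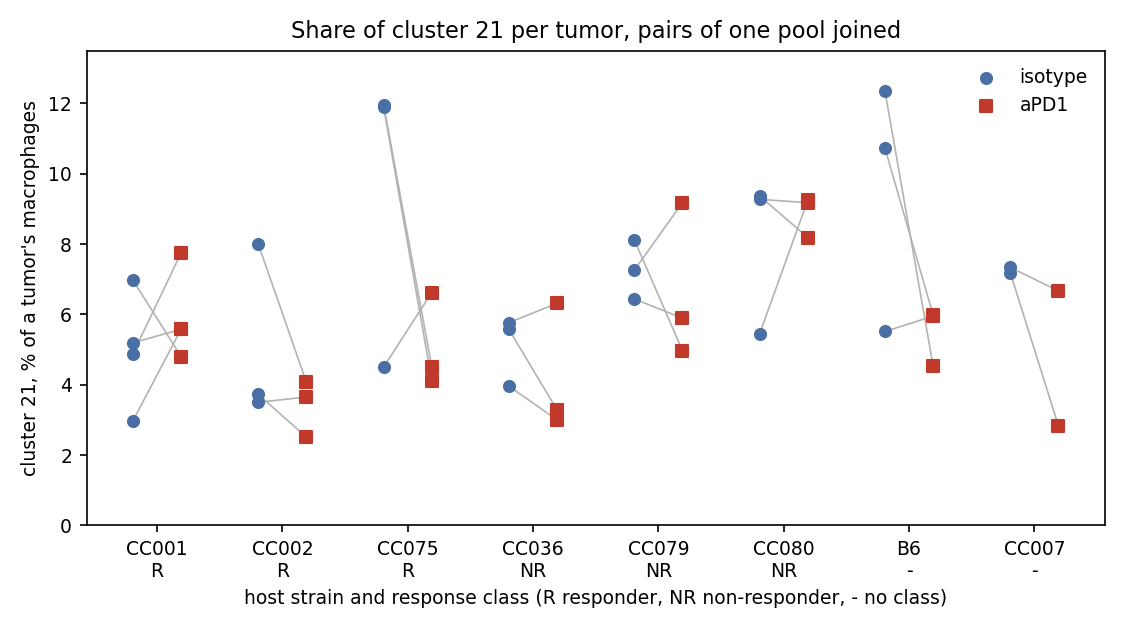
Share of macrophages in cluster 21, in percent, for each of the 48 tumors by strain and treatment (circles isotype, squares aPD1), with lines joining tumors of the same strain and pool. Isotype tumors range up to 12.4% and the isotype and aPD1 tumors overlap in range over all strains.

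The type I genes were high in cluster 21 of every strain, which follows in part from clustering the cells on their expression. The ratio of the highest to the lowest strain mean of a leading gene ran from 1.16 (Usp18) to 4.39 (Ifit3b), with a median of 1.69. CC075 had the highest mean for 13 of the 25 genes. Its summed type I level was 12362 to 15463 CPM over 6 tumors, above all 5 CC002 tumors (8719 to 11555 CPM), all 5 CC036 tumors (8754 to 11563 CPM) and all 6 CC079 tumors (9022 to 11961 CPM), and overlapping those of CC001 (10380 to 12924 CPM) and CC080 (9511 to 13658 CPM). The CC075 tumors came from pools 9 to 11, which held no CC001, CC002 or CC079 tumor, so strain and pool cannot be told apart in those contrasts. Ifi44, another interferon target, had a mean of 598 CPM in CC002 and 52.5 to 122 CPM in the other strains. Slfn4 ranged from 179 CPM in CC002 to 688 CPM in CC080.

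The aPD1 treatment was tested on counts summed per tumor with the edgeR quasi-likelihood test and strain as a term. Over all strains (22 isotype and 23 aPD1 tumors) no gene of 6523 passed an adjusted p of 0.05 (0% called, 245 genes at an unadjusted p under 0.05, and 0 with DESeq2). In the responder strains (9 and 10 tumors) 4 of 5012 genes passed (0.0798%), while DESeq2 called 57, none of them among the 4, for which it gave no adjusted p. In the non-responder strains (8 and 9 tumors) 0 of 6251 passed (0% called, 152 unadjusted, 0 with DESeq2). There 1 gene passed with paired tumors as a block, and 8 passed without a filter on low counts. The interaction of treatment and class passed for 0 of 6250 genes (0% called, 492 unadjusted, 0 with DESeq2). With paired tumors as a block 1 gene passed for the interaction, the cell cycle gene Pclaf, named after its values were seen, and without a filter on low counts 42 passed.

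All 4 genes that passed in the responder strains rose with aPD1. Ciita, the class II transactivator, had a lowest, median and highest tumor of 7.64, 23.8 and 56.8 CPM with isotype and 37.3, 62.2 and 127 CPM with aPD1, a log2 fold change of 1.26 ± 0.25 (SE; adjusted p = 0.0441 by edgeR). P2ry14, a receptor for UDP-glucose, had 22.2, 48.8 and 65.7 CPM with isotype and 50.01, 80.4 and 130 CPM with aPD1 (0.83 ± 0.16, adjusted p = 0.0441 by edgeR). The ranges of both genes overlapped between the arms. Lrmda rose by 0.60 ± 0.12 and Gbp2b by 1.27 ± 0.26 on the log2 scale, each at the same adjusted p by edgeR, and Gbp2b is a close copy of other guanylate-binding protein genes, so its level is uncertain. Cxcl9 had a log2 fold change of 0.79 ± 0.20 that did not pass (adjusted p = 0.096 by edgeR). In the non-responder strains Ciita had a median of 46.7 CPM with isotype and 47.3 CPM with aPD1 (-0.22 ± 0.26), P2ry14 had 28.8 and 49.7 CPM (0.61 ± 0.23) and Lrmda had 306 and 274 CPM (-0.16 ± 0.15). None of these passed, and Gbp2b was below the filter there. The interaction with class was 1.49 ± 0.38 for Ciita, 0.22 ± 0.29 for P2ry14, 0.76 ± 0.20 for Lrmda and 1.296 ± 0.54 for Gbp2b on the log2 scale, with adjusted p from 0.261 to 0.895 by edgeR.

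These calls were not stable. None of the 4 passed without the cells that held a lymphocyte UMI, with a minimum of 50 cells per tumor, within either set of pools, and 0 genes passed without CC002. With the isotype and aPD1 tumors of a strain and pool taken as a pair, 18 genes passed, all 4 among them.

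By list, the interferon-γ genes had a positive aPD1 fold change in the responder strains for 19 of 21 tested (median 0.22 on the log2 scale, 1 called), the class II genes for 8 of 8 (0.37, 1 called, Ciita again) and the class I genes for 9 of 9 (0.22, none called), with an all-gene median of -0.003. Of the type I genes 8 of 18 were positive, with a median of -0.01 and none called. Cells were clustered on their expression, these genes included, so membership itself limits how far their level can vary within cluster 21. A change in the type I response therefore cannot be read from these values alone. In the other macrophages of the responder strains every tested gene of these lists was positive and none was called, with medians of 0.65 for the interferon-γ genes (21 of 21), 0.48 for class II (8 of 8), 0.40 for class I (9 of 9) and 0.50 for type I genes (18 of 18). The difference between the cell sets was not tested within these strains. The other macrophages pool several clusters, and the part of their mix in these values was not tested. Lists with a negative fold change throughout in cluster 21 were the G2 and M phase genes (5 of 5, median -0.91), the S phase genes (6 of 6, median -0.70), the histone genes (6 of 6, median -0.64) and the cytosolic ribosomal genes (12 of 12, median -0.21), none called. These lists were negative throughout in the other macrophages too, with medians of -0.42 (18 of 18), -0.47 (16 of 16), -0.41 (10 of 10) and -0.12 (12 of 12), none called. In cluster 21 of the non-responder strains the S phase genes were positive for 12 of 12 (median 0.32) and the other 3 lists were of mixed sign (medians -0.08, 0.10 and 0.02), none called. In the non-responder strains the medians were -0.11 for interferon-γ genes, -0.06 for class II, -0.01 for class I and -0.07 for type I genes, none called.

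Response class was tested with treatment, but not strain, as a term, and 96 of 5265 genes differed between the 19 responder and 17 non-responder tumors, 75 higher in the responder strains (1.42%) and 21 lower (0.399%). Tumors of 1 strain share a genotype and a class is 3 strains, so these tests measure spread between tumors. With counts summed per strain, 2 genes passed, Gm10260 and Gm11127 (the latter named after its values were seen). Scaling by library size alone gave 54 higher and 48 lower, with a median of -0.05 over all genes on the log2 scale. With the pool as a block 171 genes passed, 81 of them among the 96.

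Cxcl9 and Nos2 of the interferon-γ list were higher in the responder strains, while its other chemokine Cxcl10 did not pass (0.25, adjusted p = 0.399 by edgeR). Cxcl9 had a lowest, median and highest tumor of 581, 1569 and 3457 CPM in the responder strains and 399, 665 and 1667 CPM in the non-responder strains, a log2 difference of 1.04 ± 0.20 (SE; adjusted p = 0.00103 by edgeR), and it passed under 14 of 14 settings that changed the tool, the filters or the scaling, used the pool as a block or left out a strain, but not with counts summed per strain (adjusted p = 0.0755 by edgeR) or within pools 1 to 5 (0.96, adjusted p = 0.0544 by edgeR). The 3 responder strain means of Cxcl9 (1509 to 1734 CPM) lay above the 3 non-responder strain means (678 to 895 CPM), while tumors overlapped. Nos2, inducible nitric oxide synthase, had 8.32, 38.3 and 303 CPM against 0, 9.89 and 134 CPM (1.71 ± 0.41, adjusted p = 0.0118 by edgeR), with a mean of 111 CPM in CC075, and it did not pass without CC075 or without CC079.

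Other members of that list were higher by smaller amounts. Iigp1, an immunity-related GTPase, was higher by 1.10 ± 0.23, Gbp4 by 0.63 ± 0.14, Gbp5 by 0.61 ± 0.16 and Tap1, the peptide transporter, by 0.40 ± 0.10 on the log2 scale (adjusted p from 0.00479 to 0.0257 by edgeR). The Iigp1 mean of the responder strain CC002 (162 CPM) lay below those of the non-responder strains CC080 (221 CPM) and CC036 (199 CPM), and Gbp5 kept its call in 8 of 14 settings. In all, 6 of 21 interferon-γ genes were called higher and 21 of 21 had a positive difference, with a median of 0.37 against 0.001 over all genes.

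Antigen presentation genes differed as well. H2-Eb1, a class II chain, had 1965, 3697 and 6513 CPM in the responder strains and 1062, 1619 and 2917 CPM in the non-responder strains (1.13 ± 0.14, adjusted p = 1.5e-06 by edgeR). Strain means were 4083, 3920 and 2883 CPM in CC001, CC002 and CC075 and 1818, 1808 and 1534 CPM in CC036, CC079 and CC080, so the classes separated by strain mean. Called higher were 4 of 8 class II genes (H2-Eb1, H2-Ab1, H2-Aa and H2-DMb1) and 3 of 9 class I genes (H2-Q7, H2-T23 and Tap1). The strain means of H2-Ab1, H2-Aa, H2-DMb1 and H2-T23 did not separate, with CC080 (3068 CPM) above CC075 (2575 CPM) for H2-Ab1 and CC080 (709.9 CPM) above CC001 (667 CPM) and CC002 (580.5 CPM) for H2-T23. Of 14 settings H2-Aa kept its call in 5, H2-DMb1 in 6, H2-Ab1 and H2-T23 in 7 and Tap1 in 8, while H2-Eb1 and H2-Q7 kept it in 14. These settings left out the pool sets and counts summed per strain, and with the latter none of these genes passed. H2-DMb2, a near-identical copy of H2-DMb1, was lower by a log2 difference of -1.67, and class I and class II genes differ in sequence between haplotypes, so the level of each is uncertain.

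Of the type I interferon genes 3 of 18 were called higher, Rsad2, Oasl1 and Ifi44, with 17 of 18 positive and a median of 0.15. Membership of the cluster limits the spread of these genes here too. Rsad2 had 474, 1089 and 2251 CPM against 437, 659 and 1718 CPM (0.71 ± 0.17, adjusted p = 0.0118 by edgeR), it did not pass without CC075, CC036 or CC079, and its mean in CC080 (1027 CPM) was above that in CC002 (888 CPM). Oasl1 had 275, 399 and 783 CPM against 209, 300 and 455 CPM (0.49 ± 0.11, adjusted p = 0.00643 by edgeR) and did not pass without CC075. Ifi44 was higher by 1.53 ± 0.32, which fell to 0.44 (adjusted p = 0.171 by edgeR) without CC002. Of the 25 leading genes, 3 were called higher (Rsad2, Oasl1 and Ifih1) and 22 had a positive difference. The summed type I level ran from 8719 to 15463 CPM (median 11907) in the responder strains and from 8754 to 13658 CPM (median 10483) in the non-responder strains, with wide overlap.

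**Figure D4:**
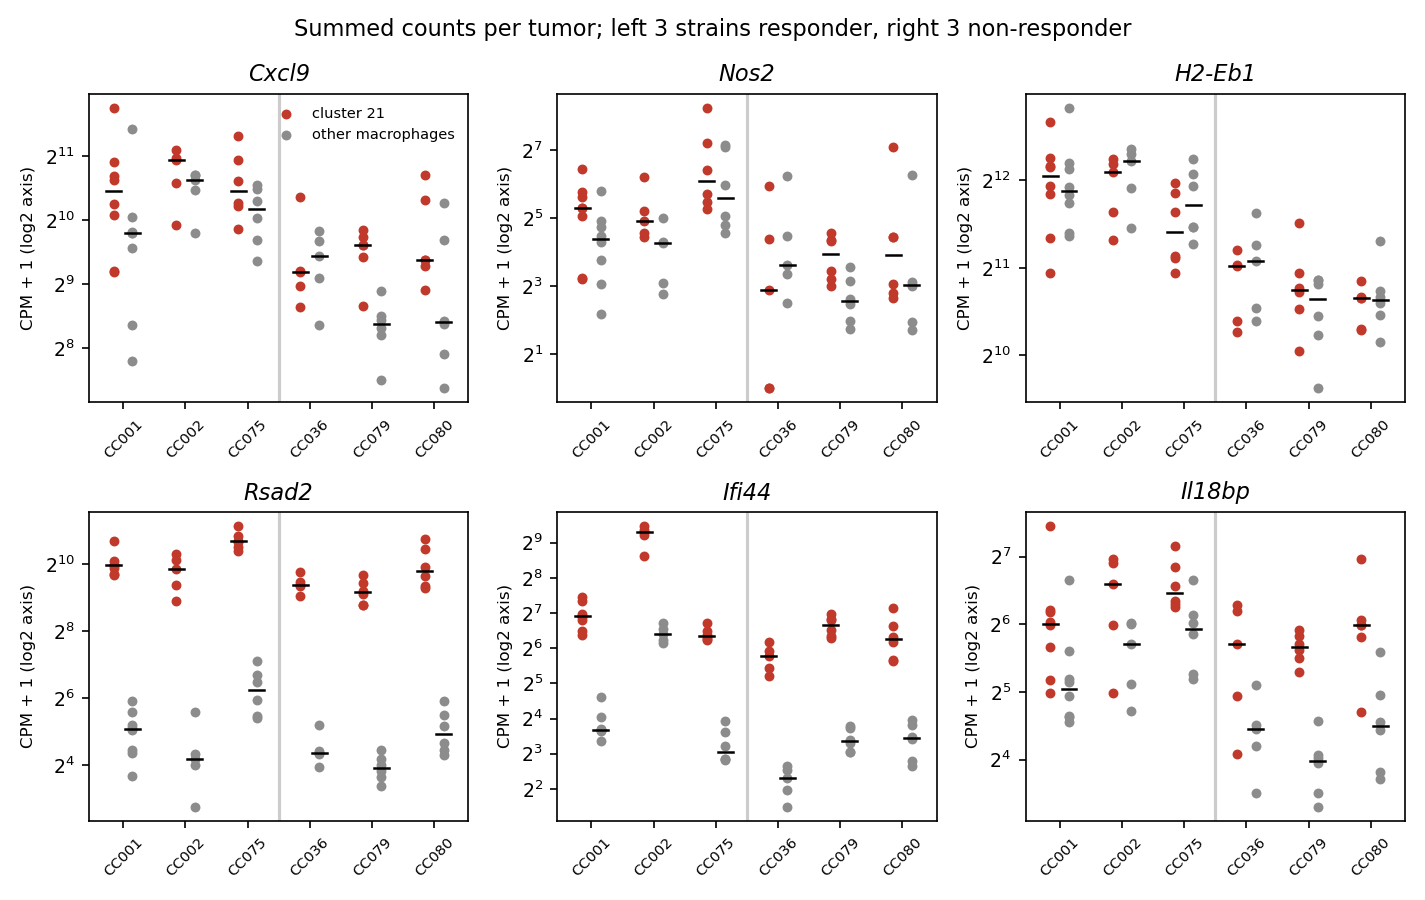
Level per tumor of Cxcl9, Nos2, H2-Eb1, Rsad2, Ifi44 and Il18bp by strain, in cluster 21 and in the other macrophages, in CPM plus 1 on a log2 axis, with bars at the median. Cxcl9 and H2-Eb1 are higher in the 3 responder strains in both sets of cells, Ifi44 is highest in CC002, and Rsad2 is far higher in cluster 21 than in the others in every strain.

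Other genes named by size of the adjusted p were of mixed kinds. Higher in the responder strains were Trim30d, an interferon-induced regulator (0.59 ± 0.09), H2-T22 (0.62), the transcript AW112010 (0.99), Ly6i (2.47), Spon1 (1.33), Ndrg1, a gene raised by low oxygen (1.53), Cyb5a (0.84) and Rps18 (0.71). Trim30d ran from 159 to 293 CPM in the responder strains and from 110 to 221 CPM in the non-responder strains. Lower were Tgfb1, which encodes the suppressive cytokine TGF-β1, with 206, 262 and 415 CPM against 263, 362 and 608 CPM (-0.41 ± 0.09, adjusted p = 0.00643 by edgeR), Gpr183, an oxysterol receptor (-1.07), Pde4d, a cyclic AMP phosphodiesterase (-1.21), Sulf2 (-1.01), P2ry10b (-0.81), Gnas (-0.40) and Spint1 (-1.18).

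Some of these differences did not follow class across the strains or concerned genes with close copies. Ly6c1 was lower by -3.96 on the log2 scale, but its mean was 0.964 CPM in the non-responder strain CC036 against 521 and 541 CPM in CC079 and CC080, and Ly6i was at 1388 CPM in CC001 and 120 to 442 CPM in the other classed strains. Both are close copies of Ly6c2. Spint1 had a mean of 96.1 CPM in CC079, while CC036 (30.5 CPM) and CC080 (32.3 CPM) lay near CC002 (27.5 CPM). The strain means of Ndrg1 and Pde4d did not separate by class, with Ndrg1 at 30.02 CPM in CC002 and 47.0 CPM in CC036, and Pde4d at 165 CPM in CC002 and 101 CPM in CC080. Gm10260, a copy of Rps18, ran from 0 to 68.8 CPM in the responder strains and from 472 to 858 CPM in the non-responder strains while Rps18 was higher in the responder strains, so the split of reads between the 2 is uncertain.

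The class difference was then compared between cluster 21 and the other macrophages of the same tumors. It was smaller in size, whatever its sign, in cluster 21 for 20 of 21 interferon-γ genes (median 0.37 in cluster 21 and 0.62 in the others), 9 of 9 class I genes (0.25 and 0.44), 8 of 8 class II genes (0.43 and 0.57) and 13 of 18 type I genes (0.15 and 0.22). Other lists ran both ways, with 7 of 8 mitochondrially encoded and 5 of 5 G2 and M phase genes smaller. The counts were 1 of 17 for glycolysis and 2 of 12 for growth factor receptors. No share over all genes was taken, so how far these counts depart from it is not known. The other macrophages pool several clusters. The paper reports that interferon-γ-stimulated macrophages, from some of those clusters, were more frequent in responder strains. How far the mix of clusters enters the class difference of the other macrophages was not tested. The counts above are counts of direction over lists. The test was made gene by gene, on the difference between the cell sets within each tumor.

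By that test the class difference was higher in cluster 21 for 4 of 12493 genes (0.032%) and lower for 19 (0.152%). At an unadjusted p under 0.05 by edgeR, 257 genes were higher and 598 lower, so all genes leaned the same way (median -0.04). Tumors of a strain share a genotype, so the SE and p-values of this test too measure spread between tumors. The test was not run with counts summed per strain, so it does not show that these differences hold with the strain as the unit. Il18bp, which encodes a secreted trap for interleukin-18, had medians of 75.1 CPM in the responder and 55.2 CPM in the non-responder strains in cluster 21, against 37.5 and 17.4 CPM in the other macrophages. Its class difference was 0.62 in cluster 21 and 1.26 in the others on the log2 scale, and the first less the second, fitted within tumors, was -0.74 ± 0.13 (SE; adjusted p = 8.08e-04 by edgeR). Ly6a (Sca-1), with medians of 1982 and 1395 CPM in cluster 21 and 938 and 478 CPM in the others, gave -0.64 ± 0.11 (adjusted p = 8.08e-04 by edgeR). In both genes the level was higher in cluster 21 in either class.

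Interferon-γ genes among the 19 were Gbp4 (-0.73 ± 0.16), Igtp (-0.52 ± 0.11) and Fcgr1, the high-affinity IgG receptor (-0.29 ± 0.07), with adjusted p of 0.0213, 0.0213 and 0.0419 by edgeR. Gbp4 had medians of 134 and 78.4 CPM in cluster 21 and 77.8 and 24.8 CPM in the other macrophages. Also lower were the class I gene H2-T23 (-0.40), the lysosomal protease Ctss (-0.25), Mpeg1, a pore-forming protein of phagosomes (-0.29), Pla2g7 (-0.49), Aoah (-0.36) and Spint1 (-0.80). The 4 genes in the other direction, Igkc, Ighg2c, Ighg2b and Csrp2, include immunoglobulin transcripts, and Igkc stood at 1.63 CPM in cluster 21 and 12.7 CPM in the others. None of the 18 type I genes was called in this test, where 15 were negative with a median of -0.15 against -0.04 over all genes. Their level in cluster 21 is limited by membership, so this test cannot show how their class difference compares between cell sets. Membership may also limit named genes that stood higher in cluster 21. These include Igtp (159 against 49.3 CPM), Fcgr1 (674 against 271 CPM), H2-T23 (608 against 313 CPM), Il18bp, Ly6a and Gbp4. The part of membership in their calls was not tested.

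These calls depended on the tumors and genes used. The count of 23 was 22 within pools 1 to 5 and 1 within pools 8 to 12, 66 without CC001 and 39 without CC036, but 8 without CC075, 2 without CC002 and 2 without CC079. It was 5 among genes past the filter in cluster 21, and 7 at a minimum of 10 cells. Gbp4 kept its call in 6 of 13 settings and Fcgr1 in 6 of 14. Il18bp was called under 12 of 13 settings that did not split the pools, and not without CC079. Within pools 8 to 12 none of the 11 named genes passed, with Il18bp at -0.53 (adjusted p = 1 by edgeR), and within pools 1 to 5 7 of the 11 passed. The 11 kept their direction in the settings that gave them a value.

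**Figure D5:**
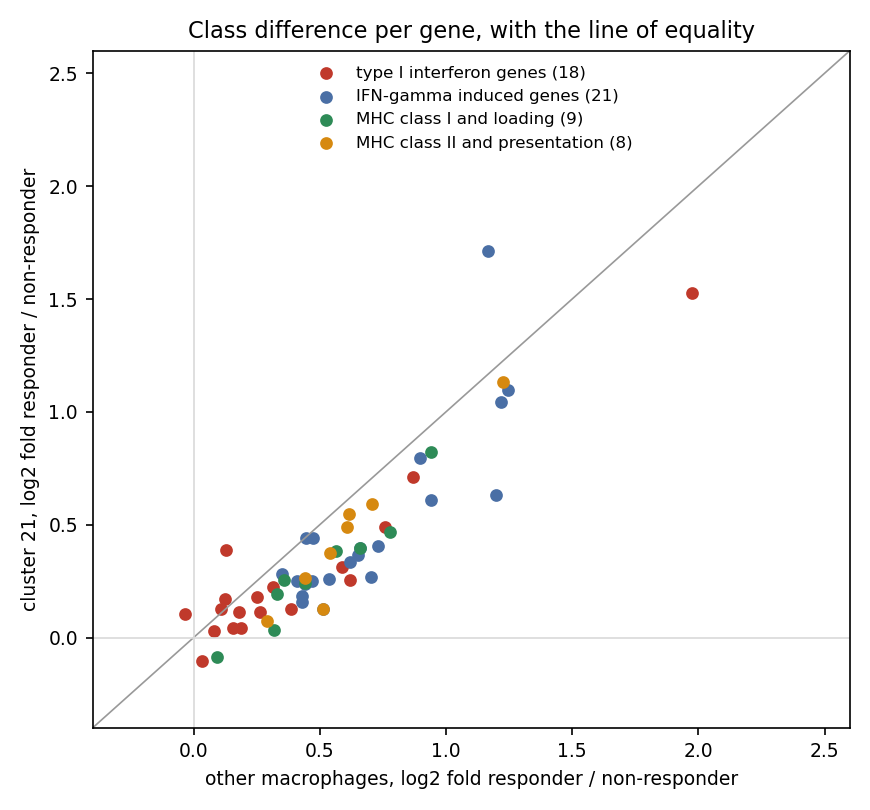
Class difference (responder minus non-responder strains, log2) of genes of the interferon-γ (21), class I (9), class II (8) and type I (18) lists, with Tap1 and Ciita each on 2 lists, in cluster 21 (vertical) and in the other macrophages (horizontal), with the line of equality. Most points lie below the line, with Nos2 of the interferon-γ list and Oas1a, Cmpk2, Rtp4 and Xaf1 of the type I list above it.

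The aPD1 effect was compared in the same way over all strains. It differed for 4 of 10762 genes (0.0372%), all of them hemoglobin genes (Hbb-bs, Hba-a1, Hba-a2 and Hbb-bt), and without the tumors of CC001 no gene passed. In the CC001 aPD1 tumor of pool 12 Hbb-bs stood at 713 CPM in cluster 21 and 3.09 CPM in the other macrophages. In the CC001 isotype tumors of pools 12 and 1 it stood at 11.9 and 7.65 CPM in cluster 21 and at 189 and 81.7 CPM in the others. Of the type I genes, 17 of 18 had a negative difference (median -0.15, none called) and of the interferon-γ genes 20 of 21 (median -0.21, none called), against -0.01 over all genes. Type I levels in cluster 21 are limited by membership, and the same may hold for interferon-γ genes raised there. The other macrophages pool several clusters. The part of either in these values was not tested.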

How the data were processed

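Gene by cell UMI counts and per-cell cluster labels were used as deposited by the authors, who ran bcl2fastq and Cell Ranger on mm10 (GRCm38), removed cells of high mitochondrial or ribosomal share, clustered cells in Seurat 5.0.1 with batch correction by harmony, and regressed cell cycle, total count and mitochondrial and ribosomal share. Doublet removal is not given in the sources used here, and no doublet caller was run. A tumor was a pool, strain and treatment, as called by the authors. The members and lists were chosen with earlier results of these data known.

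Counts of cluster 21, or of the other macrophages, were summed per tumor (at least 20 cells). They were filtered with filterByExpr, scaled by TMM and tested with glmQLFit and glmQLFTest in edgeR 4.0.16 (R 4.3.3), with Benjamini-Hochberg adjustment over all genes tested at 0.05. Treatment models had strain as a term, class models had treatment, and the comparison of cell sets fitted each tumor as a block. Named genes were the 10 of smallest adjusted p in each direction of at least 20 CPM, and every called gene of the interferon and antigen presentation lists. In the treatment models tumors of a strain and pool share a library, and that label is the pairing used as the replicate block. Over 2915 genes the deviations of paired tumors from their strain and arm means correlated by more than 0.1 in 13 of 20 pairs (median 0.133, lowest -0.05). Shares were compared with permutation tests of 100000 resamples (scipy 1.17.1). On simulated counts, edgeR fits were tested for aPD1 in responder strains, class, the interaction and the class difference between cell sets. Alternatives were DESeq2 1.42.0, library-size scaling, no filter, other cell minimums, removal of cells with lymphocyte UMIs, blocks, each strain left out, and pools 1 to 5 or 8 to 12 alone, the last added after seeing the data. Precision is limited by the 130811 to 955649 UMIs per tumor, and p-values measure the spread between tumors.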

Additional observations from a re-analysis of the deposited data

Results flagged for a closer look

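Among 158 groups of 4 to 10 tumors, 9 values stood apart from the rest of their group, where chance gives about 1 in 20 groups. In cluster 21 of responder isotype tumors, P2ry14 was at 22.2 CPM in the CC001 tumor of pool 2 (others 41.2 to 65.7 CPM), and Tgfb1 was at 415 CPM in the CC075 tumor of pool 10 (others 243 to 308 CPM). In responder aPD1 tumors, the summed type I level was 9112 CPM in the CC002 tumor of pool 5 (others 11307 to 13765 CPM), and Ciita was at 127 CPM in the CC001 tumor of pool 12 (others 37.3 to 70.2 CPM), the tumor that also carried the hemoglobin counts.

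In the non-responder strains, Lrmda was at 473 CPM in the CC080 isotype tumor of pool 4 (others 247 to 323 CPM). The CC079 aPD1 tumor of pool 2 was low for both Ciita (8.71 CPM, others 28.1 to 64.4 CPM) and P2ry14 (10.4 CPM, others 38.6 to 58.7 CPM), which are 2 of the 4 genes called with aPD1 in the responder strains. Of the CC036 aPD1 tumors, that of pool 9 had the lowest Cxcl9 (399 CPM, others 584 to 848 CPM) and that of pool 10 the highest Ndrg1 (115 CPM, others 15.8 to 39.8 CPM).

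The class difference in cluster 21 less that in the other macrophages was tested gene by gene and passed for Il18bp (-0.74 on the log2 scale), Ly6a (-0.64), Pla2g7 (-0.49), H2-T23 (-0.40), Mpeg1 (-0.29), Aoah (-0.36), Spint1 (-0.80), Ctss (-0.25), Igtp (-0.52), Gbp4 (-0.73) and Fcgr1 (-0.29). For all of these but Spint1 the class difference was positive in both sets of cells and smaller in cluster 21. This test was not run with counts summed per strain. The part of the mix of clusters pooled as the other macrophages, and that of cluster membership, was not tested. Spint1, a protease inhibitor, was lower in the responder strains by -1.18 in cluster 21 and by -0.35 in the others. The aPD1 effect in cluster 21 less that in the others passed for Hbb-bs (7.03), and not without CC001.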

How the results depend on the processing

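Of 117 results of comparisons under an alternative, 80 stayed, 35 counts moved by more, 1 share difference reversed and 1 passed its threshold. A count stayed if it was equal or within 1.5 times, whichever genes were called, also where no gene was called in either. The share differences that stayed kept their direction and their side of the threshold. Of 793 results of named genes, 560 kept their call, 233 lost it and none reversed. Where a value moved, the cause was not tested.

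Without a filter on low counts the calls were 22 (aPD1, all strains), 91 (aPD1, responder strains), 8 (aPD1, non-responder strains), 42 (interaction) and 185 (class). With the replicate block of paired tumors they were 18 for aPD1 in responder strains, 1 in non-responder strains and 1 for the interaction, and with the pool as a replicate block 171 for class, while the blocked share difference kept its side of the threshold. DESeq2 called 57 genes with aPD1 in responder strains, sharing 0 with the 4 of edgeR, whose DESeq2 adjusted p was missing, and 0 for the aPD1 effect in cluster 21 against other macrophages. At a minimum of 50 cells, the calls were 0 (aPD1, responder strains), 1 (non-responder strains) and 7 (class difference between cell sets, also 7 at 10 cells). Without cells with a lymphocyte UMI, aPD1 in responder strains gave 0. Without the 2 CC080 tumors of 1 animal identifier the class difference between cell sets gave 15.

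Class gave 2 calls with counts summed per strain, 29 within pools 1 to 5 and 32 within pools 8 to 12. Of the classed strains, CC075 and CC036 were absent from pools 1 to 5 and CC079 from pools 8 to 12. In these pool sets aPD1 in responder strains gave 0 within pools 1 to 5 and the class difference between cell sets 1 within pools 8 to 12. Among genes past the filter in cluster 21, the class difference between cell sets gave 5 and the aPD1 effect between cell sets 0. Leaving out each strain in turn gave 0 to 1 calls for aPD1 in all strains (1 without B6), 0 to 5 in responder strains (0 without CC002), 61 (without CC079) to 170 (without CC001) for class, 2 to 66 for the class difference between cell sets, and 0 to 4 for the aPD1 effect between cell sets (0 without CC001). The share difference was 0.169 percentage points within pools 1 to 5 and ran from -1.86 to -0.973 with strains left out. Tests of the share between response classes were planned but not run, because genes that define the cluster differed between classes.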
